A study of Mus musculus with 60 samples.

Results

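Livers of mice taken 12 months after whole-body exposure to 1 of 3 heavy ions were compared, as 1 irradiated group, with livers of non-irradiated control mice of the same time. The members were 12 of the 60 RNA-Seq libraries of the series, chosen by their labels alone: 3 labelled 56Fe Irradiated, 3 labelled 16O Irradiated, 3 labelled 28Si Irradiated and 3 non-irradiated control. All groups were male C3H mice (C3H/HeNCrl), a strain prone to liver tumours, and no engineered allele is named for them. They were irradiated at 8 to 10 weeks of age with 0.2 Gy of ions whose energies differed between the 3 kinds, or were left non-irradiated. Each library was total RNA of slices of the left liver lobe of 1 mouse, depleted of ribosomal RNA, and the other 48 libraries were of the same 4 treatments at 1, 2, 4 and 9 months.

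The acute phase response is the switch by which hepatocytes, driven by cytokines such as IL-6 and IL-1, pour out serum amyloid A, haptoglobin, orosomucoid and related plasma proteins while genes of bile acid and lipid metabolism fall. Short structured RNAs, among them spliceosomal snRNAs, snoRNAs that guide modification or processing of ribosomal RNA, the RNA of RNase P, the 7SL RNA of the signal recognition particle and Y RNAs, lack poly(A) tails and are seen in ribosome-depleted total RNA.

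Expression was measured as RPKM (reads mapped to a transcript, scaled by its length in kilobases and by the depth of the library), summed over the transcripts of a gene. Mapped read pairs ranged from 12607387 to 15014590 in the 3 control libraries and from 14612755 to 23805443 in the 9 ion libraries, so the controls were on average the shallower ones (exact two-sided permutation test over 220 splits, p = 0.0273). The part of this depth difference in the results below was not tested. Hepatocyte markers were abundant in every library: their summed level was 45090 to 47230 RPKM in the controls and 25670 to 43990 RPKM in the ion livers, without overlap, and none of the 10 was at 0. Because whole liver slices were measured, fewer cells of a type and less RNA per cell cannot be told apart. A set of 3 livers, 1 control and 2 irradiated, stood apart from the other 9: control replicate 2, 56Fe replicate 1 and 16O replicate 2. The median Spearman correlation with the other 11 livers was 0.964, 0.947 and 0.883 for these and 0.981 to 0.987 for the others. The pooled calls and some of the lists are given with and without them.

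After 12 months, 4 of 11926 genes tested were higher in the 9 ion livers than in the 3 controls and 0 were lower (limma, Benjamini-Hochberg adjusted p of at most 0.05; background 0.0335% called). At an unadjusted p under 0.05 the counts were 205 higher (1.72%) and 225 lower (1.89%). Of the 4 genes, 3 were short non-coding RNAs: Gm25541, annotated as an snRNA, Snord13, a snoRNA, and Rprl3, annotated as a ribozyme and a relative of the RNase P RNA. The other was Gm11808, annotated as protein-coding. The sequences of Gm25541 and Rprl3 are shown because the origin of the reads turns on them. They are annotated transcript sequences of GRCm38, 5′ to 3′ on the strand of the gene, for Gm25541 (chr2:27539805-27539930, minus strand) and Rprl3 (chr8:3803069-3803358, minus strand). Copies outside annotated transcripts were not searched.
Gm25541: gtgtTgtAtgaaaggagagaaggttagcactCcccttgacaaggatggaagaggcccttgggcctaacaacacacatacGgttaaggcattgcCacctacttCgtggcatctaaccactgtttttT
Rprl3: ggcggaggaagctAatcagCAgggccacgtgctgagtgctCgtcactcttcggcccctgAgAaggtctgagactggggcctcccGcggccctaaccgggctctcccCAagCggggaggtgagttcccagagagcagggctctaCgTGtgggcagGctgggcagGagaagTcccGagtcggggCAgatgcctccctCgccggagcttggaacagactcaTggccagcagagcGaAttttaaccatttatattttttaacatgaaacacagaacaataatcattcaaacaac
In Gm25541 the capitals mark the 7 of 126 bases that differ from the snRNA gene Gm23879, and in Rprl3 the 23 of 290 bases that differ from Rprl2. Other genes were counted as near copies when they shared at least a set number of different runs of 16 bases on the transcript strand. By this count Gm25541 had 6 near copies and aligned to Gm23879 at 95.2% identity. Rprl3 had 4, and aligned to Rprl2 at 92.1% over 290 columns. It aligned to Rpph1, also annotated as a ribozyme, at 94.1% over 204 columns. Gm11808 (chr4:3973092-3973595, minus strand) had 27. For these 3 genes the counting could split or move reads between copies, so their levels are uncertain. For Snord13 no other annotated gene reached that number, and genes that shared fewer runs were not examined.

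Gm25541 was listed at 0 RPKM in all 3 controls. It reached 1.43, 1.09 and 0.915 RPKM in the 56Fe livers, 6.55, 2.74 and 4.63 in the 16O livers and 1.33, 2.90 and 1.42 in the 28Si livers. The groups did not overlap, and the 16O livers held the highest mean level (4.64 ± 1.91 RPKM, SD, n = 3, against 1.14 ± 0.262 for 56Fe and 1.88 ± 0.880 for 28Si). The values stood for 54 reads in the 9 ion libraries, between 2 and 15 in each, and for 0 in the controls. With the limit of 3 reads that a count of 0 allows over the control group, this was an at least 4.38-fold higher level per mapped read pair (a limit for counting error only; adjusted p = 0.0207, limma).

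Snord13 lay at 11.2, 10.3 and 27.5 RPKM in the controls. In the ion livers it was 57.6, 51.98 and 72.6 after 56Fe, 46.02, 54.5 and 52.4 after 16O, and 56.6, 100.3 and 61.8 after 28Si. Every ion liver was above every control, and 28Si replicate 2 was the highest. The group means were 16.3 ± 9.68 RPKM (SD, n = 3) and 61.5 ± 16.3 RPKM (n = 9), and the log2 fold change, on the scale of log2(RPKM + 0.1), was 2.05 (SE 0.271, adjusted p = 0.0207, limma). Snord13 RNA, a box C/D snoRNA, takes part in acetylation of the small ribosomal subunit RNA.

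Rprl3 was 16.3, 11.9 and 19.4 RPKM in the controls and 25.4 to 52.1 RPKM in the ion livers, with a median of 37.6. The lowest ion liver, 16O replicate 1, lay above the highest control. The means were 15.9 ± 3.75 (SD, n = 3) and 39.3 ± 7.998 RPKM (n = 9), a log2 fold change of 1.33 (SE 0.177, adjusted p = 0.0207, limma). Gm11808 was at 0 in the 3 controls and between 0.229 and 1.14 RPKM in the ion livers. These were 49 reads against 0, an at least 3.98-fold higher level by the same limit (adjusted p = 0.0224, limma). Gm25541 and Gm11808, at 0 in the controls, passed the filter on low values (at least 0.5 RPKM in 3 livers) through the ion livers alone. In a fit of 26205 genes without that filter the adjusted p was 0.0110 for Gm25541 and 0.0227 for Gm11808 (limma).

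**Figure D1:**
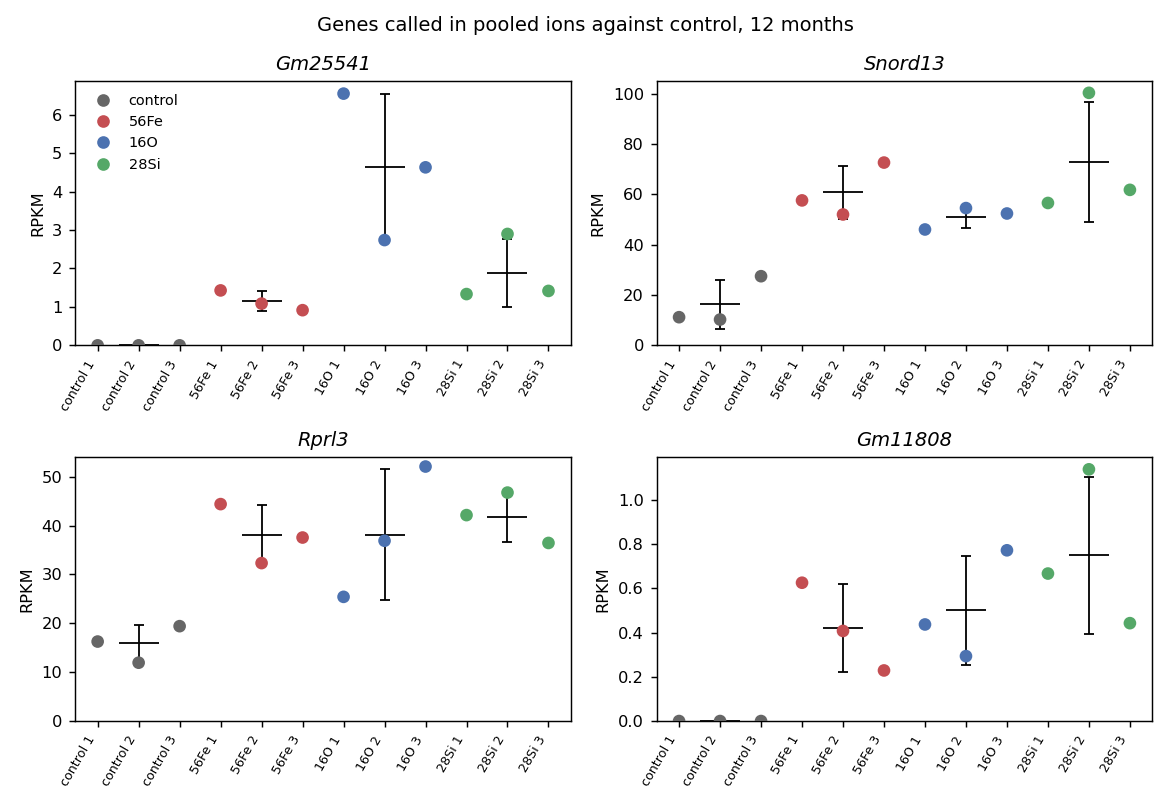
RPKM (y axis) of the 4 genes called in pooled ions against control, one panel each, in the 12 livers at 12 months (x axis, group and replicate). Points are single livers and the crossbars give mean ± SD of 3 livers per group. All 9 ion livers lie above the 3 controls in each panel, and Gm25541 and Gm11808 are at 0 in the controls.

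Without the 3 livers that stood apart, the sizes were similar and the calls were lost. The log2 fold changes were then 1.83 for Snord13 and 1.13 for Rprl3, with an adjusted p of 0.0956 for Gm25541 and 0.134 for the other 3 genes (limma, 2 controls against 7 ion livers), and 0 genes passed, with 887 at an unadjusted p under 0.05. Leaving out control replicate 1 or control replicate 2 alone also gave 0 calls. The limma-voom fit on estimated reads made 0 calls as well, with 370 genes at an unadjusted p under 0.05.

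Short RNA genes as a group leaned the same way, and those other than the 3 called above did not pass the test. The group, set up after values had been seen, was 30 short non-coding RNA genes that passed the filter on low values. All counts below include the 3 called genes. The group held only genes whose name matched exactly 1 annotated gene, so short RNA genes named otherwise are missing from it. Of the 30, 28 had a higher mean log2 level in the ion livers and 2 a lower one. Their median log2 fold change was 0.75, against 0.00 over all 11926 genes. The 3 called above rose. At an unadjusted p under 0.05, 15 of the 30 were higher, where 1.72% of all genes were. The lean was spread over the classes: 8 of 8 snRNAs, 4 of 5 snoRNAs, 2 of 2 scaRNAs, 2 of 2 ribozyme genes and 12 of 13 of the class misc_RNA, which holds the 7SL, 7SK and Y RNAs. In 6 of the 30 the 9 ion livers did not overlap the 3 controls, where 0.461% of all genes were higher without overlap. The median distance from each gene's median over the 12 livers was -0.70, -0.53 and -0.56 log2 units in the 3 controls and -0.16 to 0.36 in the 9 ion livers. With the 3 livers that stood apart left out, 25 of 29 were higher, with a median of 0.78. The filter can admit a gene through the 9 ion livers alone, as it did Gm25541, so these counts are a description of the genes that passed it.

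Among those that did not pass, Snora17, an H/ACA snoRNA, was 2.59, 1.51 and 1.20 RPKM in the controls and 2.62 to 10.3 RPKM in the ion livers, of which the lowest was 56Fe replicate 3 (log2 fold change 1.68, adjusted p = 0.413, limma). Rn7s2, a 7SL RNA gene, was 20.5, 18.7 and 15.1 RPKM in the controls and 21.7 to 32.2 RPKM in the ion livers. Its groups did not overlap (log2 fold change 0.58, adjusted p = 0.424, limma), but its 300 bases are identical to those of Rn7s1, so the 2 genes cannot be read apart. The Y RNA genes Rny1 and Rny3 had log2 fold changes of 1.34 and 1.25, each with an overlap through control replicate 3, at 12.0 and 21.8 RPKM. Rn7sk, the 7SK RNA that holds back the elongation factor P-TEFb, was the most abundant of these genes shown here and differed little: 8993, 9392 and 8021 RPKM in the controls and a log2 fold change of 0.07.

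The same genes were followed over time, with the caution that 70.8% to 83.7% of mapped pairs lay in annotated transcripts at 12 months but 46.6% to 66.4% at 1 month, a difference between times whose part was not tested. Median Snord13 levels in the controls were 98.4 RPKM at 1 month, 59.0 at 2, 26.6 at 4, 21.97 at 9 and 11.2 at 12 months. In the 28Si livers the medians were 149, 138, 195, 321 and 61.8 RPKM at the same times, and in the 56Fe livers 53.5, 69.5, 20.9, 21.7 and 57.6. The control level at 12 months was thus the lowest of the 5 control medians, while the 12-month ion livers lay within the range of ion livers at other times (12.2 to 402 RPKM). Gm25541 was read in controls of the other times at up to 4.57 RPKM, so controls of other times did hold reads of this gene. Rprl3 medians in controls were 73.7, 51.3, 26.5, 36.4 and 16.3 RPKM from 1 to 12 months.

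For the 30 short RNA genes the median pooled log2 difference was -0.17 at 1 month, 0.43 at 2, 0.45 at 4, 0.82 at 9 and 0.75 at 12 months in a fit of all 60 libraries. In that fit 4 of them rose at 9 months and 3 at 12 months. Gm24105_2, named after the misc_RNA gene Gm24105, is not among the 30 because its name matched no annotated gene. It also passed at 12 months in that fit (log2 fold change 1.525, adjusted p = 0.0261, limma). Over all 12731 genes of the fit, 13 were called at 1 month, 0 at 2 months (588 at an unadjusted p under 0.05, limma), 1 at 4, 324 at 9 and 9 at 12 months.

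At the level of single transcripts, 22 of 29560 passed (0.0744%), and all 22 were higher in the ion livers. They belonged to 22 genes, 4 of which were those above. For the other genes the sum over transcripts did not pass: the median log2 fold change of the 22 genes was 0.15. Scly_6, a transcript of selenocysteine lyase, had a log2 fold change of 4.47 (adjusted p = 0.00271, limma), while Scly as a gene was 17.6 RPKM in the controls and 21.7 in the ion livers (0.30, adjusted p = 1.00). Vps29_6, of the retromer subunit gene Vps29, had 4.86 at the transcript and -0.03 at the gene. Canx_1, of the endoplasmic reticulum chaperone calnexin, had 5.33 at the transcript and 0.04 at the gene. In 7 of the 22 transcripts the 3 controls were at 0 and in 9 more 2 of the 3 were, so these fold changes depend on the added 0.1. The filter on low values also acts in 1 direction: of the transcripts tested, 335 were at 0 in all 3 controls and 0 in all 9 ion livers, because 3 libraries had to be above the limit.

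No protein-coding gene other than Gm11808 passed in the pooled comparison. Among the lower genes with the smallest p, Rpl31, of the large ribosomal subunit, was 62.0, 48.2 and 52.7 RPKM in the controls. It was 38.5, 41.7 and 41.4 after 56Fe, 33.3, 36.4 and 39.3 after 16O, and 36.8, 32.01 and 34.5 after 28Si, with no overlap (log2 fold change -0.52, adjusted p = 0.232, limma), as in 0.62% of all genes. It passed when libraries were weighted by their own spread (-0.53, adjusted p = 0.0493) and without 16O replicate 2 (-0.55, adjusted p = 0.0420). Rpl38, another large subunit gene, was 98.0, 73.9 and 78.3 RPKM in the controls, 59.9 to 61.9 after 56Fe, 34.96 to 45.8 after 16O and 44.9 to 50.0 after 28Si. These groups did not overlap either (-0.73, adjusted p = 0.339, limma). Rpl13 had -0.70 (adjusted p = 0.458). At other times, however, Rpl38 ranged from 15.7 to 102 RPKM in controls.

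The mitochondrial complex I gene mt-Nd3 was 1734, 1145 and 1312 RPKM in the controls and 737 to 1061 in the ion livers (-0.61, adjusted p = 0.641, limma). Of the 13 mitochondrially encoded protein genes 12 were lower, with a median of -0.19, and 0 passed. Of 58 cytosolic ribosomal protein genes 42 were lower, with a median of -0.07, and 0 passed (5 at an unadjusted p under 0.05). In the other direction Spry4, a feedback inhibitor of receptor tyrosine kinase signalling, was 1.32, 0.868 and 0.601 RPKM in the controls and 1.49 to 2.53 in the ion livers. Its groups did not overlap (1.09, adjusted p = 0.413, limma), and it passed in the fit of all 60 libraries (1.08, adjusted p = 0.0251). Gadd45a, a p53-induced stress gene, was 3.61, 2.87 and 3.61 RPKM in the controls, 9.62, 6.53 and 7.88 after 56Fe, 5.11, 11.7 and 7.41 after 16O, and 4.40, 4.16 and 3.90 after 28Si. Every ion liver lay above every control, with the 28Si livers nearest to them. The pooled log2 fold change was 0.92, with an adjusted p of 1.00 in the fit of the 12 livers and of 0.0241 in the fit of all 60 libraries (limma), and the difference among the ions did not pass (adjusted p = 0.966).

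Of genes tied to growth factor and matrix signalling, among those the study put forward for the ions, none tested passed in the pooled comparison. The study scored whole pathways for each ion, some with opposite directions between ions and some at other times. Pooling can hide opposite directions, so the values below do not test those scores. Egfr, another of these genes, is given further below for each ion. The estimates for Mmp9 and Ccnd1 had wide standard errors, so closeness to the controls is not shown for them. Igf1, the growth hormone-dependent growth factor of liver, was 163, 143 and 160 RPKM in the controls and 120 to 191 in the ion livers (log2 fold change 0.04, SE 0.0956). Vegfa, the angiogenic factor, was 35.4 to 43.1 RPKM in the controls and 35.1 to 53.9 in the ion livers (0.17, SE 0.164). Bcr, a kinase and GTPase regulator gene, had 0.14 (SE 0.108) and the matrix protease gene Mmp9 0.03 (SE 0.734). Ccnd1, the cyclin D1 gene, had -0.46 (SE 0.390), with 1.77, 3.42 and 4.03 RPKM in the controls and 1.16 to 5.41 in the ion livers, and Igf1r had 0.02 (SE 0.190). Mmp2 did not pass the filter on low values. Mdm2, a p53 target, had -0.01. The adjusted p of each of these 7 genes tested was 1.00 (limma), which does not show that they were equal between groups.

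In 52 lists of pathway and cell type marker genes, none of the members of any list passed in the pooled comparison (limma), and the lists are described by counts and medians. Of the interferon-induced genes, the antiviral genes switched on by interferons, 44 of 48 tested were higher in the ion livers, with a median of 0.29 and 2 at an unadjusted p under 0.05. When the 3 livers that stood apart were left out, 40 of 45 were higher, with a median of 0.35 and 14 at an unadjusted p under 0.05, where 3.68% of all genes were higher at that level. Ifit3, a translation-blocking member, was 2.47, 4.16 and 2.64 RPKM in the controls and 3.63 to 7.82 in the ion livers. Control replicate 2 overlapped them (0.73, adjusted p = 1.00). Dhx58, a cytosolic RNA sensor of the RIG-I family, was 2.62, 2.72 and 2.85 RPKM in the controls and 3.01 to 5.73 in the ion livers, without overlap (0.61, adjusted p = 1.00). The antigen presentation list had 17 of 21 members higher, with a median of 0.25. In control replicate 2, 56Fe replicate 1 and 16O replicate 2, 10, 25 and 26 of the 48 interferon-induced genes were at least 2-fold above the median of the 12 livers, and in the other 9 livers at most 1. Kupffer cell markers summed to 113 to 646 RPKM in the controls and 121 to 1050 RPKM in the ion livers, with 0 of 15 at 0, and their part in the interferon values was not tested. At 1, 2, 4 and 9 months the medians of the interferon list were 0.32, -0.03, -0.18 and 0.08.

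Chaperones of the endoplasmic reticulum had a higher mean log2 level in the ion livers in 21 of 21 members, with a median of 0.21. Without the 3 livers that stood apart this was 17 of 21, with a median of 0.11. For 28Si alone it was 15 of 21. With all 12 livers, 4 members were higher at an unadjusted p under 0.05, where 1.72% of all genes were. Single livers overlapped: the list's median distance from the medians of the 12 livers was -0.295 to -0.059 in the controls and -0.276 to 0.557 in the ion livers. Hyou1, a large chaperone of the lumen, was 55.8, 48.7 and 53.9 RPKM in the controls and 51.7 to 86.9 RPKM in the ion livers (0.42, adjusted p = 1.00, limma). Syvn1, the ubiquitin ligase of the degradation pathway of that organelle, was 8.19 to 10.4 RPKM in the controls and 9.71 to 23.7 in the ion livers, with the 2 highest values in 56Fe replicates 2 and 3.

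Markers of sinusoidal endothelial cells, the fenestrated lining of liver capillaries, were higher in 14 of 14, with a median of 0.24 (0.18 and again 14 of 14 without the 3 livers). Clec4g, a lectin of these cells, was 16.0, 9.91 and 10.6 RPKM in the controls and 11.7 to 21.9 in the ion livers. The summed level of the list was 95.3 to 112 RPKM in the controls and 96.3 to 156 RPKM in the ion livers, which overlapped. At 9 months 0 of the 14 were higher.

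Of the lists often read in irradiated tissue, some lay near the median of all genes and others leaned further. p53 target genes had 15 of 23 higher and a median of 0.13, which became 11 of 23 and -0.01 without the 3 livers. DNA break and base repair genes had 10 of 27 higher (-0.05), and liver tumour and fetal liver genes 13 of 27 (0.00). Cell cycle genes had 17 of 25 higher (0.12). Immediate early response genes leaned higher, with 16 of 19 (0.39), or 11 of 16 without the 3 livers (0.28). Negative acute phase genes, which hepatocytes lower in inflammation, had 13 of 16 lower (-0.19): Ahsg, or fetuin-A, was 3213, 3365 and 3366 RPKM in the controls and 1889 to 2874 RPKM in the ion livers, without overlap (-0.37, adjusted p = 1.00, limma). Hepatocyte markers had 8 of 10 lower (-0.21), led in abundance by Alb, at 30520, 32770 and 29630 RPKM in the controls and 13940 to 30280 RPKM in the ion livers. Positive acute phase genes had 16 of 37 higher (-0.03), with a wide spread between livers, described below. Without the 3 livers this became 7 of 37, with a median of -0.27, and 10 were lower at an unadjusted p under 0.05, where 3.99% of all genes were.

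**Figure D2:**
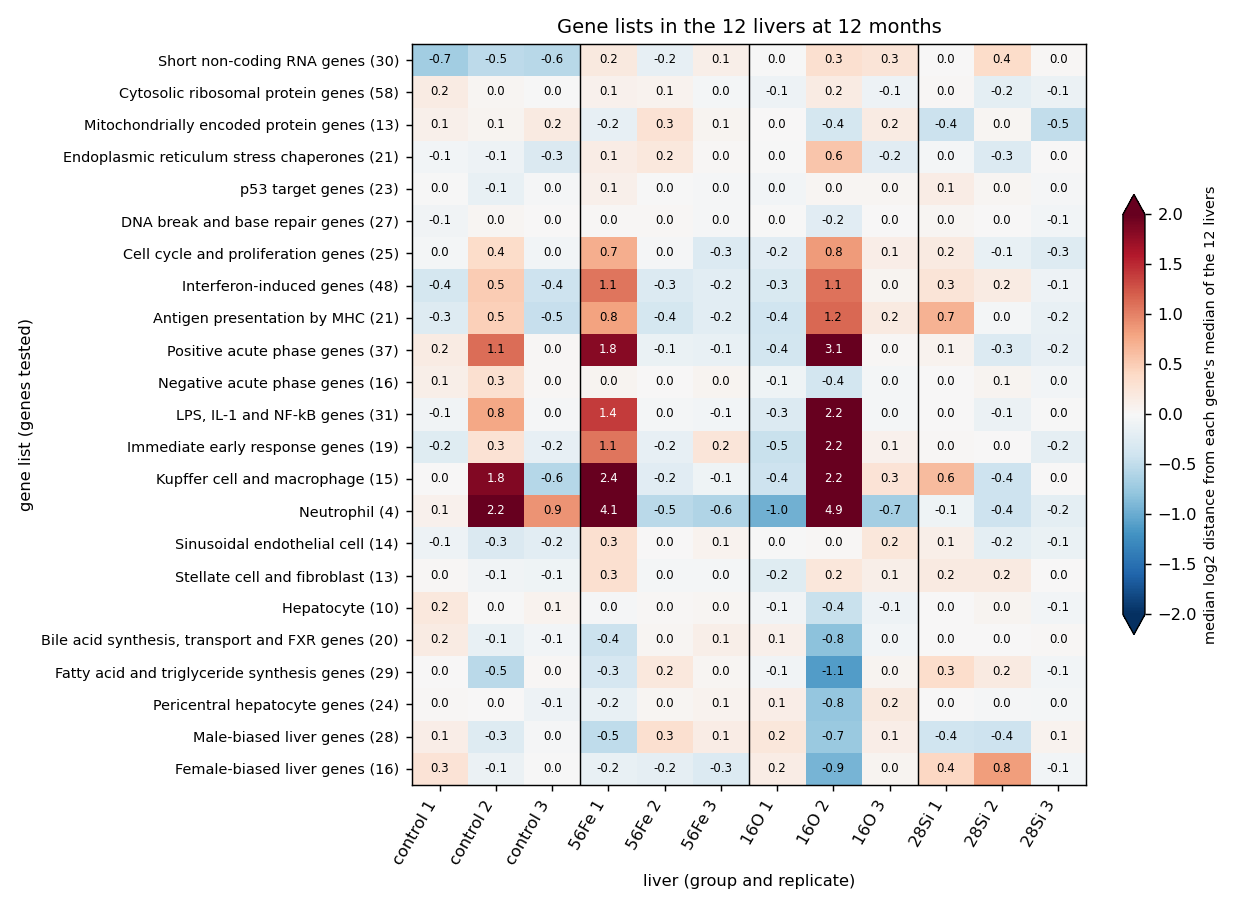
Median log2 distance of a list's genes from each gene's own median over the 12 livers (colour and number, red higher and blue lower). Rows are a selection of the gene lists (number of genes tested in brackets) and columns are the livers at 12 months. The acute phase, NF-kB, macrophage and neutrophil rows are high in control replicate 2, 56Fe replicate 1 and 16O replicate 2, and the short RNA row is lowest in the 3 controls.

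Each ion was also set against the same 3 controls, in 1 fit of 4 groups. Each comparison called 1 of 11926 genes (0.00839%), and in each it was Gm25541, with an adjusted p of 0.0110 for 56Fe, 0.000126 for 16O and 0.00216 for 28Si (limma). Since the 3 comparisons share their controls, in which Gm25541 was at 0, and since the filter admitted it through the ion livers, this is not evidence that the ions agreed. The count was also 1 for each ion without the filter. At an unadjusted p under 0.05 there were 270 genes for 56Fe, 637 for 16O and 453 for 28Si. For Snord13 the log2 fold changes were 2.00, 1.89 and 2.26 for 56Fe, 16O and 28Si, and for Rprl3 1.24, 1.33 and 1.41. The list medians differed more: 0.25, 0.45 and 0.21 for the interferon list, 0.30, 0.28 and 0.06 for the endoplasmic reticulum chaperones, and -0.04, 0.35 and -0.62 for the positive acute phase genes. For the short RNA genes they were 0.63, 0.76 and 0.65. These differences between list medians were not tested. The acute phase and chaperone medians also took in single high livers. As a median distance from each gene's median over the 12 livers, the positive acute phase list was 3.11 in 16O replicate 2. It was 1.82 in 56Fe replicate 1, 1.11 in control replicate 2 and -0.37 to 0.16 in the other livers. The chaperone list was 0.56 in 16O replicate 2, and -0.01 and -0.23 in 16O replicates 1 and 3. Without the 3 livers that stood apart, 56Fe called 0 genes (587 at an unadjusted p under 0.05, limma), 16O 2 and 28Si 5. Rpl38 was among them for both, with a log2 fold change of -1.07 for 16O (adjusted p = 0.0333) and -0.85 for 28Si (adjusted p = 0.0440) against the same 2 controls.

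Without the controls, the differences among the 3 ions were tested by an F-test over the 9 ion livers. None of 11690 genes passed (limma; 307 at an unadjusted p under 0.05, 2.63%), nor did any in limma-voom. Between pairs of ions 0 genes passed in each of the 3 contrasts, with 301, 203 and 607 at an unadjusted p under 0.05 for 56Fe against 16O, 56Fe against 28Si and 16O against 28Si. The smallest p belonged to Gm26035, a gene of class misc_RNA on chromosome X: 17.3, 14.7 and 8.98 RPKM after 56Fe, 57.5, 64.7 and 57.9 after 16O and 48.8, 34.2 and 32.4 after 28Si (adjusted p = 0.655). Its controls were 1.78, 16.0 and 11.3 RPKM. Abhd17b, a depalmitoylating enzyme gene, was 10.9, 11.4 and 12.7 RPKM after 56Fe, 15.1, 12.97 and 16.98 after 16O and 9.27, 8.44 and 11.6 after 28Si. The controls, at 14.9 to 16.5 RPKM, lay with the 16O livers. Nebl, an actin-binding gene, was highest after 28Si (2.84, 3.60 and 3.67 RPKM, against 0.981 to 2.02 in the other 6 ion livers).

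Egfr, the receptor of epidermal growth factor, did not pass. Its log2 change was 0.49 for 56Fe, 0.33 for 16O and -0.46 for 28Si. It was 78.9, 81.6 and 152 RPKM in the 28Si livers and 119 to 252 RPKM in the other 6 ion livers. A p that misses the threshold does not show that the ions acted alike. Without the 3 livers that stood apart, the F-test called 4 genes, with adjusted p values of 0.0161 to 0.0290: Lars2, CT010467.1, Selenbp2 and Gm26035. CT010467.1, annotated as an rRNA gene, was 519 and 535 RPKM in 56Fe replicates 2 and 3, against 13.3 to 38.5 RPKM in the 28Si livers. Lars2, a mitochondrial leucyl-tRNA synthetase gene, was 45 and 57.5 RPKM in the same 56Fe livers and 4.38 to 7.76 in the 28Si livers. The controls of CT010467.1 spread from 64.6 to 349 RPKM, and ribosomal RNA was removed before library preparation. The part of incomplete removal in these values was not tested.

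**Figure D3:**
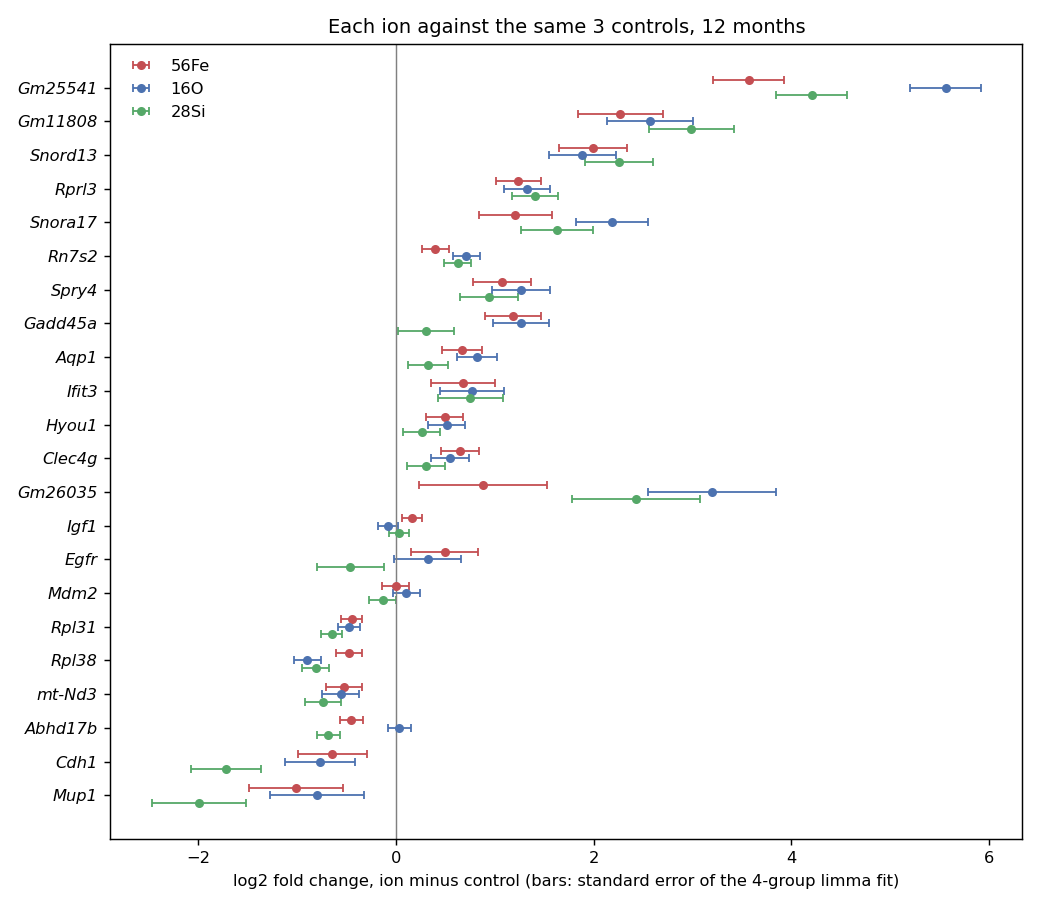
Log2 fold change on the log2(RPKM + 0.1) scale (x axis) of each ion against the same 3 controls at 12 months for 22 genes (y axis), with the standard error of the 4-group fit as bars. The ions lie close together for Snord13 and Rprl3, and 28Si lies lower than 56Fe and 16O for Gadd45a.

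Single deviating livers were counted next. A gene was counted as deviating in a liver that was the highest or lowest of the 12 by at least 1 log2 unit. By this count 16O replicate 2 deviated in 901 of 11926 genes (7.56%), 391 as the highest and 510 as the lowest, and no other liver exceeded 18 (56Fe replicate 1). Counted against the median of the 12 livers, 1325 genes were at least 2-fold higher in 16O replicate 2 (11.1%), 807 in 56Fe replicate 1 (6.77%) and 554 in control replicate 2 (4.65%). In the other 9 livers it was 17 to 85 genes.

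Genes of the acute phase response, of macrophages and of neutrophils were among those high in these 3 livers. Of 37 positive acute phase genes tested, 33 were at least 2-fold above the median in 16O replicate 2, 29 in 56Fe replicate 1 and 19 in control replicate 2. Saa2, a serum amyloid A gene, was 20070, 3513 and 404 RPKM in these livers in that order, and 2.89 to 36.1 RPKM in the other 9. Lcn2, an iron-siderophore binding protein of the innate defence, was 2018, 255 and 114.9 RPKM against 0.299 to 4.94. Orm2, an orosomucoid gene, was 1201, 384 and 253 RPKM against 2.06 to 14.1. The livers thus kept 1 order, with 16O replicate 2 first and the control last, for all 3 of these genes. The haptoglobin gene Hp was 10150, 5923 and 3527 RPKM against 958 to 1755.

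Marco, Cxcl13 and Adgre1 were highest in 56Fe replicate 1. Marco, a scavenger receptor, was 63.7 RPKM in 16O replicate 2, 112 in 56Fe replicate 1 and 45.2 in control replicate 2, against at most 0.838 in the other 9 livers. Cxcl13, a B cell chemokine, was 121, 124 and 52.2 RPKM against 0.0478 to 0.959. Adgre1, the F4/80 antigen, was 37.1, 72.3 and 30.8 RPKM against 1.74 to 7.67. Clec4f, the lectin that defines Kupffer cells, was not raised, at 24.8, 17.4 and 31.8 RPKM against 17.4 to 41. S100a8, a neutrophil alarmin, was 44.7, 34.1 and 10 RPKM against 0.184 to 1.93. At the other times the highest of 48 livers was 13.9 RPKM for Cxcl13 and 11.2 RPKM for Marco, whereas Saa2 reached 18000 RPKM there.

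**Figure D4:**
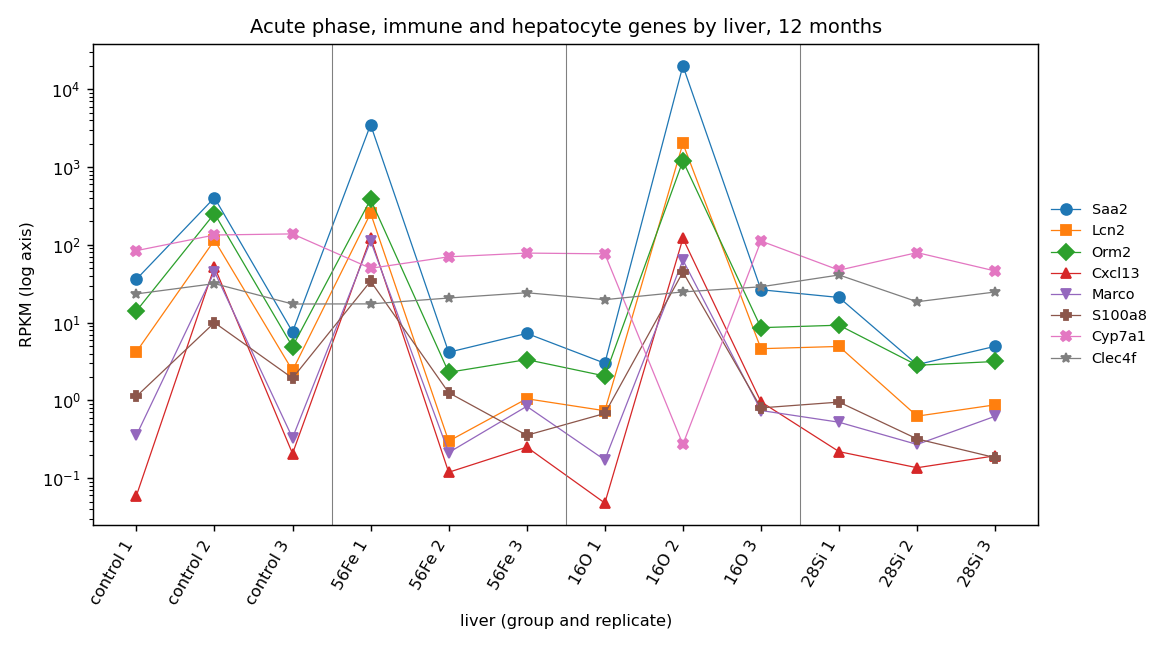
RPKM on a log axis (y) of 8 genes in the 12 livers at 12 months (x, group and replicate, with vertical lines between groups). Saa2, Lcn2, Orm2, Cxcl13, Marco and S100a8 rise in control replicate 2, 56Fe replicate 1 and 16O replicate 2, Cyp7a1 is low in 16O replicate 2, and Clec4f stays between 17.4 and 41 RPKM.

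A further set of genes was highest in 16O replicate 2 by a wide gap. Saa3, the serum amyloid gene also made by macrophages, was 3337 RPKM there and 0.893 to 24.8 in the other 11 livers. Igfbp1, a binding protein of insulin-like growth factors that responds to fasting and stress, was 416 against 1.20 to 13.6. Ddit4, a stress-induced inhibitor of mTORC1, was 48.1 against 0.873 to 1.77. Of 19 immediate early genes 15 were at least 2-fold above the median in this liver and 11 in 56Fe replicate 1.

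Several groups of hepatocyte genes were low in the same liver, and others were not. Cyp7a1, the rate-limiting enzyme of bile acid synthesis, was 0.272 RPKM there against 46.1 to 138 RPKM in the other 11, and Cyp8b1, which sets the share of cholic acid, 10.9 against 79.0 to 182. Angptl8, an insulin-induced regulator of lipoprotein lipase, was 0.057 against 1.77 to 11.6. At least 2-fold below the median were 9 of 20 bile acid genes, 15 of 29 fatty acid and triglyceride synthesis genes, 11 of 21 targets of AhR, CAR and PXR and 10 of 24 pericentral genes, where the share over all genes was 10.1% in this liver. In contrast, 0 of 16 apolipoprotein genes and 0 of 47 nuclear genes of oxidative phosphorylation were that low. Of 23 urea cycle and periportal genes 5 were that low and 4 at least 2-fold above, and of 10 hepatocyte markers 2 were low and 2 high. Cyp7a1 was 49.98 RPKM in 56Fe replicate 1, near the lower end of those 11 livers, and 134 RPKM in control replicate 2. The median log2 distance of the bile acid genes from their medians was -0.82 in 16O replicate 2 and -0.43 in 56Fe replicate 1. It was -0.14 in control replicate 2 and -0.05 to 0.16 in the remaining livers.

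The promoters of Saa2 and Lcn2 are shown because these genes were high in all 3 livers with a wide range between them. The windows are the 300 bases around the start of the gene in RefSeq (GRCm38.p6), for Saa2 at chr7:46751583-46751882 on the plus strand and for Lcn2 at chr2:32387690-32387989 on the minus strand.
Saa2: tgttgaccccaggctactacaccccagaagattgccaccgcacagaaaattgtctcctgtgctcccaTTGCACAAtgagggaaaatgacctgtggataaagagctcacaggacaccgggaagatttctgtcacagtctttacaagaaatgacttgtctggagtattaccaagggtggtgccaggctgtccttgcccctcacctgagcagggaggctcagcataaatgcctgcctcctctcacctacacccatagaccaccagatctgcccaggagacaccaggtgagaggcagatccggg
Lcn2: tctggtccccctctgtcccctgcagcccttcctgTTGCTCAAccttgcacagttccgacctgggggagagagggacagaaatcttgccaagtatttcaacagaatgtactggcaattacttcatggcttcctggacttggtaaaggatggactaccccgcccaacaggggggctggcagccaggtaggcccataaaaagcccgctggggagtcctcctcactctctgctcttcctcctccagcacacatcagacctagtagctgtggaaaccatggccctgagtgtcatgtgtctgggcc
The capitals mark a match to TTGCNNAA, a short form of the C/EBP motif searched on both strands. Saa1, Saa2, Saa3, Lcn2, Orm2 and Cxcl13 each held 1 such match in this window and Marco 0, while 10.8% of 32851 promoters held it. These 7 genes were chosen after their values had been seen and include several serum amyloid genes. Their matches therefore cannot be read against that rate. The strings GGACTTTCC (an NF-kB motif, in 0.3% of promoters) and TTCNNNGAA (a STAT motif, in 8.3%) were found in none of the windows of these 7 genes. The strings differ in strictness and other forms of these sites were not searched. Their absence therefore does not show that the promoters lack NF-kB or STAT sites.

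56Fe replicate 1 was also the only one of the 12 livers with almost no C1s1 RNA, the complement protease C1s gene. These values were singled out after they had been seen. C1s1 was 0.139 RPKM in this liver and 34.8 to 89.4 RPKM in the other 11. Its neighbours on chromosome 6, C1ra and C1rb, which code for the partner protease C1r (GRCm38, chr6:124512405-124523443 and chr6:124570294-124581171), were 8.05 and 67.7 RPKM, and in the other 11 livers 23.99 to 65.2 and 2.71 to 30.9. As a share of their sum, C1rb took 89.4% in this liver. It took 47.4% in control replicate 2, 52.04% in 56Fe replicate 2, 49.2% in 16O replicate 1 and 50.6% in 28Si replicate 3, and 4.63% to 7.82% in the remaining 7 livers, 16O replicate 2 among them. The same 3 levels were found at other times, in control and ion livers for the middle level and in ion livers for the high one. At 12 months each of the 4 groups had 1 of its 3 livers at the middle level. The sum of C1ra and C1rb was 75.8 RPKM in the liver without C1s1.

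**Figure D5:**
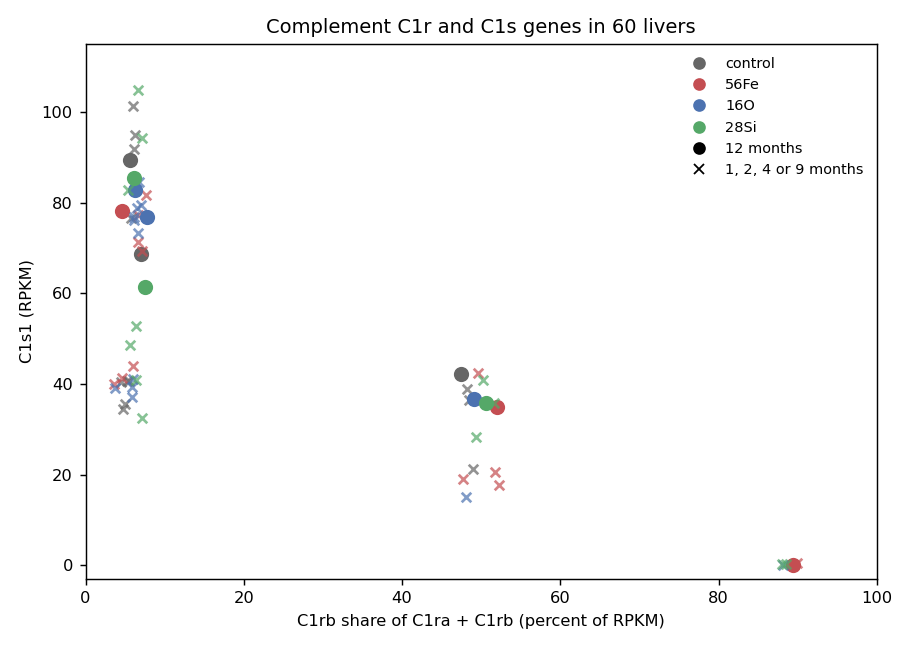
C1s1 level (y axis, RPKM) against the C1rb share of the summed C1ra and C1rb level (x axis, percent of RPKM) in the 60 livers, coloured by treatment. Dots are the 12 livers at 12 months and crosses those of other times. The livers fall near 6%, near 50% and near 89%, and C1s1 is close to 0 at the last.

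Other single-liver differences were smaller. Jchain, the joining chain of plasma cell antibodies, was 21.2 RPKM in 56Fe replicate 1 and 1.14 to 3.70 RPKM elsewhere. Apoa4, a lipid-responsive apolipoprotein, was 303 RPKM in 16O replicate 3 against 34.6 to 112. Mt1, a metallothionein, was 12.9 RPKM in 56Fe replicate 2 and 32.1 to 1552 in the rest. Hamp, which codes for the iron hormone hepcidin, was 57.5 RPKM in control replicate 2 and 153 to 455 in the others, and Asns, an ATF4 target, was 0.168 in 28Si replicate 1 and 0.907 to 14.4 in the others. 28Si replicates 1 and 2 shared a shift in sex-biased genes of the male livers: in each of them 6 of 16 female-biased genes were at least 2-fold above and 6 of 28 male-biased genes at least 2-fold below the median, where the shares over all genes were 0.713% and 0.57% above and 0.604% and 1.1% below in the 2 livers. Cyp2b9, a female-biased cytochrome P450, was 17.2 and 18.8 RPKM there and 0.158 to 3.94 elsewhere. Cyp2a4, another female-biased one, was 9.16 and 13.2 RPKM there, but 24.4 in control replicate 1 and 62.5 in 16O replicate 3. Mup1, a male-biased urinary protein gene, was 72.5 and 41.7 RPKM against 96.9 to 449. In 16O replicate 2 more of the male-biased genes were at least 2-fold below the median, 10 of 28, together with 7 of the 16 female-biased genes.

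Finally, the pooled difference at 12 months was compared with the mean of the same difference at 1, 2, 4 and 9 months, in 1 fit of the 60 libraries. It differed for 4 of 12731 genes (0.0314%). For Cdh1, which codes for the epithelial adhesion protein E-cadherin, the ion minus control difference was 0.12, 0.05, 0.21, 1.95 and -1.03 on the log2 scale at 1, 2, 4, 9 and 12 months. At 12 months it was 3.75, 5.08 and 6.16 RPKM in the controls, 2.32, 3.18 and 4.33 after 56Fe, 2.01, 1.94 and 4.73 after 16O and 0.977, 1.39 and 2.07 after 28Si. The difference of the 12-month effect from the mean of the others was -1.62 (adjusted p = 0.000112, limma), and at 9 months the controls were the low group, at 1.22 to 1.75 RPKM. The contrast thus holds both the low control level at 9 months and the lower ion level at 12 months. In the fit of the 12 livers alone, Cdh1 had -1.04 and an adjusted p of 1.00, while in the fit of all 60 libraries its 12-month difference passed (adjusted p = 0.0251, limma).

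Gadd45a differed by 0.97 (adjusted p = 0.0390, limma): its ion minus control difference was -0.36 to 0.08 at the other 4 times and 0.92 at 12 months. Aqp1, a water channel of vessels and bile ducts, differed by 0.74 (adjusted p = 0.0390). It was 27.1, 14.4 and 24.1 RPKM in the controls at 12 months and 21.7 to 39.4 RPKM in the ion livers, with differences of -0.45 at 9 and 0.61 at 12 months. Gm25541 differed by 3.68 (adjusted p = 0.00945). Without the 3 livers that stood apart only Cdh1 of these 4 passed (-1.44, adjusted p = 0.0228), and the differences were 0.72 for Gadd45a and 0.49 for Aqp1.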

How the data were processed

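RNA-Seq of left liver lobe was analysed from the deposited transcript-level RPKM of 60 libraries. Per the labels and the study's methods, the authors isolated total RNA, removed ribosomal RNA with Ribo-Zero, made TruSeq libraries, sequenced 50-base paired reads on an Illumina HiSeq, and mapped them with CLC Genomics Workbench to GRCm38; the authors deposited RPKM per transcript (123811 transcripts, here summed to 38204 genes) without counts. The 20 columns of group means were not used. Depth was recovered from single-transcript genes, whose low RPKM gave whole read pairs (within 0.02) for 99.8% to 99.9% of values at 12 months. The counting of reads shared between copies, and any use of strand, is not given in the sources used here.

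Genes that reached 0.5 RPKM in 3 or more of the libraries fitted were tested with limma 3.58.1 (R 4.3.3; trend) on log2(RPKM + 0.1) after trimmed-mean scaling (30% and 5% trimmed), two-sided, with Benjamini-Hochberg adjustment over all genes and a threshold of 0.05. The study tested each ion on counts; RPKM required a log-scale test here. The pooled fit compared 9 ion with 3 control livers, so differences between ions counted as spread. Each ion was a contrast in a fit of 4 groups, the ions were compared by F-test, and 12 months was set against other times in a fit of 20 groups. Replicates were separate mice. The fits were tested on simulated data with known changes.

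Members, gene lists and tests were chosen with earlier results of these data known, and the short RNA group, the C1 genes, the promoters and the fits without 3 livers after values had been seen here. Genes were named by smallest p or largest deviation among those with a mean log2 level of at least 1, by list membership, and for growth factor genes the study had put forward. Scaling, pseudocount, filter, variance model, library weights, a replicate block and the libraries in the fit were varied. Sequences came from annotated transcripts of GRCm38 and from RefSeq promoters. Some items are not reported here.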

Additional observations from a re-analysis of the deposited data

Results flagged for a closer look

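Among the 9 ion livers, 11 of 78 genes examined had 1 liver whose gap to the nearest other, divided by the whole range on the log2(RPKM + 0.1) scale, exceeded Dixon's 95% critical value for 9 samples. Chance gives this in about 1 of 20 genes, but many of the 78 were chosen for a large deviation in 1 liver, so the count cannot be read against that rate. In 16O replicate 2 the ratio was 0.616 for Saa3, 0.624 for Igfbp1, 0.846 for Ddit4, 0.843 for Cyp7a1, 0.697 for Cyp8b1 and 0.594 for Angptl8, the first 3 as the highest and the last 3 as the lowest liver. In 56Fe replicate 1 it was 0.828 for C1s1 and 0.513 for C1ra, as the lowest, and 0.674 for Jchain, as the highest. The remaining ones were 28Si replicate 2 for Snord13 (0.577, the highest) and 16O replicate 1 for Ndufb4, a complex I subunit gene (0.616).

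In 4 genes the ion effect at 12 months differed from the mean effect at the other times by an interaction test (limma), by 0.74 log2 units for Aqp1, -1.62 for Cdh1, 0.97 for Gadd45a and 3.68 for Gm25541.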

How the results depend on the processing

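The pooled comparison called 4 genes. With a pseudocount of 0.5 or 1 it called 2, with limma-voom 0, with the mean of the ions in a fit of 4 groups 1, in the fit of all 60 libraries 9, and without 56Fe, 16O or 28Si 1, 2 and 0. Leaving out single livers gave 0 to 5: 0 without control replicate 1 or 2, and 1 without control replicate 3, 56Fe replicate 1, 28Si replicate 1 or 28Si replicate 3. Snord13 and Rprl3 each passed in 17 of 29 alternatives, Gm25541 in 20 of 28 and Gm11808 in 10 of 26, and each was higher in the ion livers in all of them. For 56Fe the count of 1 became 0 with either pseudocount, with limma-voom and in a fit of its 6 libraries, and 0 to 2 without single livers. For 16O it became 0 with limma-voom, 17 with library weights and 1 to 2 without single livers. For 28Si it became 0 with either pseudocount and with limma-voom, 6 with library weights, 2 in a fit of 6 libraries and 1 to 3 without single livers. Among the ions, 0 became 1 with library weights and stayed at 0 without any single liver. The contrast of 12 months with other times, 4, became 2 on RPKM as deposited, 1 with either pseudocount, 12 with library weights and 1 to 14 without single livers, the 14 without control replicate 1. The 22 transcripts became 10 and 7 with a pseudocount of 0.5 and 1, and 13 to 41 without single livers, the 41 without control replicate 3. Deviating genes of 16O replicate 2, 901, became 158 at 2 log2 units and 552 with a pseudocount of 1, and the most in any other liver, 18, became 2 and 8, and 28 on RPKM as deposited. Leaving out control replicate 2, 56Fe replicate 1 and 16O replicate 2 together, an alternative added after seeing the data, gave 0 pooled calls, 0 for 56Fe, 2 for 16O, 5 for 28Si, 4 among the ions and 1 for the contrast of times. Of 78 genes followed through the pooled settings, 31 took both signs, none of which passed in any setting (Saa2 -1.84 to 1.08, Lcn2 -2.11 to 0.75, Marco -1.48 to 1.93). The causes were not tested.

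Replicate numbers do not stand for shared animals or days in the labels, and same-numbered livers deviated together with correlations from -0.69 to 0.54. With the replicate block the counts were 0 pooled genes, 0 for 56Fe, 1 for 16O, 2 for 28Si, 0 among ions, 5 for the contrast of times and 10 transcripts. Levels under 1 RPKM rested on few reads, 2 to 11 a library for Gm11808.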
